A study of Drosophila melanogaster with 26 samples.

Results

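The genes described here lie at the centromere-proximal end of the X chromosome of *Drosophila melanogaster*. They are the genes on the X that start above 20 Mb in release 6 of the genome, have more than 0 reads on their own strand in each of 26 RNA-seq libraries, and do not encode ribosomal proteins. Of 17489 genes listed in the deposited tables, 246 start above 20 Mb on the X. The read rule left out 150 of them, and the exclusion of ribosomal protein genes left out 0, so that 96 genes remained. Their changes upon RNAi were set beside those of 938 genes that start between 5 and 20 Mb on the X and meet the same rule, called mid X genes below.

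In male flies, genes on the X are transcribed at a raised rate through the male-specific lethal (MSL) complex, which contains the noncoding RNAs roX1 and roX2 and acetylates histone H4. JIL-1 is a kinase that phosphorylates serine of histone H3 outside mitosis and is enriched on the male X. JASPer is its binding partner, which recognises methylated lysine of histone H3 on transcribed genes. The base of the X borders pericentric heterochromatin, a compact and gene-poor chromatin, and carries an array of ribosomal RNA genes, so that the outermost euchromatic genes, the border and the ribosomal array follow each other along the region.

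Male S2 cells and female Kc cells received double-stranded RNA against *jasper* or *jil-1*, or a control one (against *gst* or *gfp*, which the labels do not tell apart), at 10 µg/mL. The methods of the study list 2 such RNAs for each target, and the labels do not say which of them a library received. After 3 days the treatment was repeated, and RNA was taken after 4 more days, depleted of ribosomal RNA and sequenced with strand information. There were 14 libraries of S2 cells in 3 batches (5 of control cells, 4 upon *jasper* and 5 upon *jil-1* RNAi) and 12 of Kc cells in 2 batches, 4 of each kind. Both are established lines, so that sex, copy number of the X and line history cannot be told apart between them, and the labels do not say whether libraries of a group came from separate cultures.

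Own-strand reads on genes were between 4038886 and 17648358 per S2 library and between 2513223 and 17419281 per Kc library. With differences between batches taken out by the model, replicates varied by a coefficient of 7.43% (S2) and 12.4% (Kc) on top of counting noise. Opposite-strand reads on *Jasper*, in CPM (counts per Mread, that is, read counts relative to the scaled library size), numbered 132 or more in every S2 library with *jasper* RNAi and 10.5 or fewer elsewhere in S2, and the corresponding limits in Kc cells were 18.7 and 4.03. For *JIL-1* they were 109 and 13.1 in S2 and 59.7 and 6.68 in Kc cells. Own-strand reads on both targets also varied upon RNAi, up to 1640.96 CPM for *Jasper* and 674.8 CPM for *JIL-1* in S2 cells, so that these reads do not measure the knockdown. The male marker roX2 had between 520.0 and 956 CPM in S2 and at most 21.4 CPM in Kc libraries, and *msl-2* had at least 46.8 and at most 13.2 CPM, while roX1 did not separate the lines, with 0.569 to 26.9 CPM in S2 and 0.916 to 33.6 CPM in Kc libraries. All 7 listed hemocyte markers had reads in both lines, although *NimC4* was at 0 in at least 1 S2 library and reached 0.648 CPM there. Of other markers, *elav* had between 20.8 and 44.1 CPM, while *nSyb* and *Syt1*, also listed for neurons, had at most 1.58 CPM in either line. The listed ovary markers *tj* and *Fas3* had at most 4.7 CPM, and the fat body markers *Lsp1alpha*, *Lsp2* and *Fbp1* at most 0.238 CPM. The germ line marker *bam* had at least 28.5 CPM in Kc and at most 3.27 CPM in S2 libraries.

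The 96 genes comprised 78 protein-coding genes, 4 noncoding RNA genes, 3 small nucleolar RNA genes, 9 ribosomal RNA pseudogenes and 2 ribosomal RNA genes. The 11 ribosomal RNA genes and pseudogenes lie between positions 23205258 and 23291729 and by name belong to several kinds of ribosomal RNA. The authors kept uniquely aligned reads only, so that reads matching several of these genes equally well were not counted. The sequences of the 11 were not compared, so that how surely the counted reads were assigned among them is not known. They are described apart, and the main summaries are given with and without them. Of the 96 genes, 51 (53.1%) overlapped another annotated gene, as did 58.8% of the 85 genes without ribosomal RNA genes and 46.5% of the mid X genes. The median exon length was 2351.5 bases, 2505 bases without ribosomal RNA genes and 2335 bases for the mid X. Per kilobase of exon, the median control level of the 85 genes was 20.54 CPM in S2 and 21.4 CPM in Kc cells, close to the 20.2 and 20.9 CPM of the mid X. With the ribosomal RNA genes, whose own medians were 344.9 and 336 CPM, it was 22.8 and 24.2 CPM. Among the 85 genes without ribosomal RNA genes, the control level in S2 cells per kilobase ran from 0.117 CPM for *CG1695* to 175 CPM for *Stt3A*, which encodes the catalytic subunit of oligosaccharyltransferase.

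The region is not evenly filled. Between 20 and 21 Mb lay 26 members, between 21 and 22 Mb 33, between 22 and 23 Mb 16 and above 23 Mb 21, of which 10 were not ribosomal RNA genes. No member started between *DIP1* at 21624796 and *CG14621* at 22444227. The members nearest to the 20 Mb edge were *Rab35* (20155766 to 20159872, minus strand), a small GTPase of membrane traffic, and *Phf7* (20160355 to 20165830, minus strand), a chromatin reader known from the male germ line. *amn* (starting at 19886108) and *Hers* (starting at 19866146) were the nearest mid X genes. Upon *jasper* RNAi in S2 cells the log2 fold-changes were -0.11 for *Rab35*, -0.13 for *Phf7*, 0.15 for *amn* and 0.034 for *Hers*.

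In S2 cells most of the proximal genes were lower upon *jasper* RNAi, by a small amount that resembled that of the mid X genes. The median log2 fold-change of the 96 genes was -0.10 and 64 of them were below 0, while the median was -0.086 for the mid X and 0.030 for autosomal genes. Without the ribosomal RNA genes the proximal median was -0.12. Single genes ran from -0.88 for *snoRNA:MeU6-A47*, which did not pass the test, to 1.14 for *CG17065*. Autosomal genes are those of both large autosomes with reads in every library of the line. Unlike the X genes compared here, they needed no reads in the other line and include ribosomal protein genes. With edgeR's quasi-likelihood test and an adjusted p below 0.05, 20 members fell and 2 rose. Over all genes tested in S2 cells 11.9% fell, 8.45% rose and 20.3% were called in either direction. Of the mid X genes 219 (23.3%) fell and 29 (3.09%) rose. The share of falls among the 96 proximal genes, 20.8%, lay above that of all genes and below that of the mid X. Without the 11 ribosomal RNA genes, none of which was called, the share was 23.5%, close to that of the mid X. By mean expression, 16 of the falls and 0 rises were among the 43 stronger of the 85 genes, and 4 falls and 2 rises among the 42 weaker ones, where the median standard error (SE) was 0.13 beside 0.057.

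**Figure D1:**
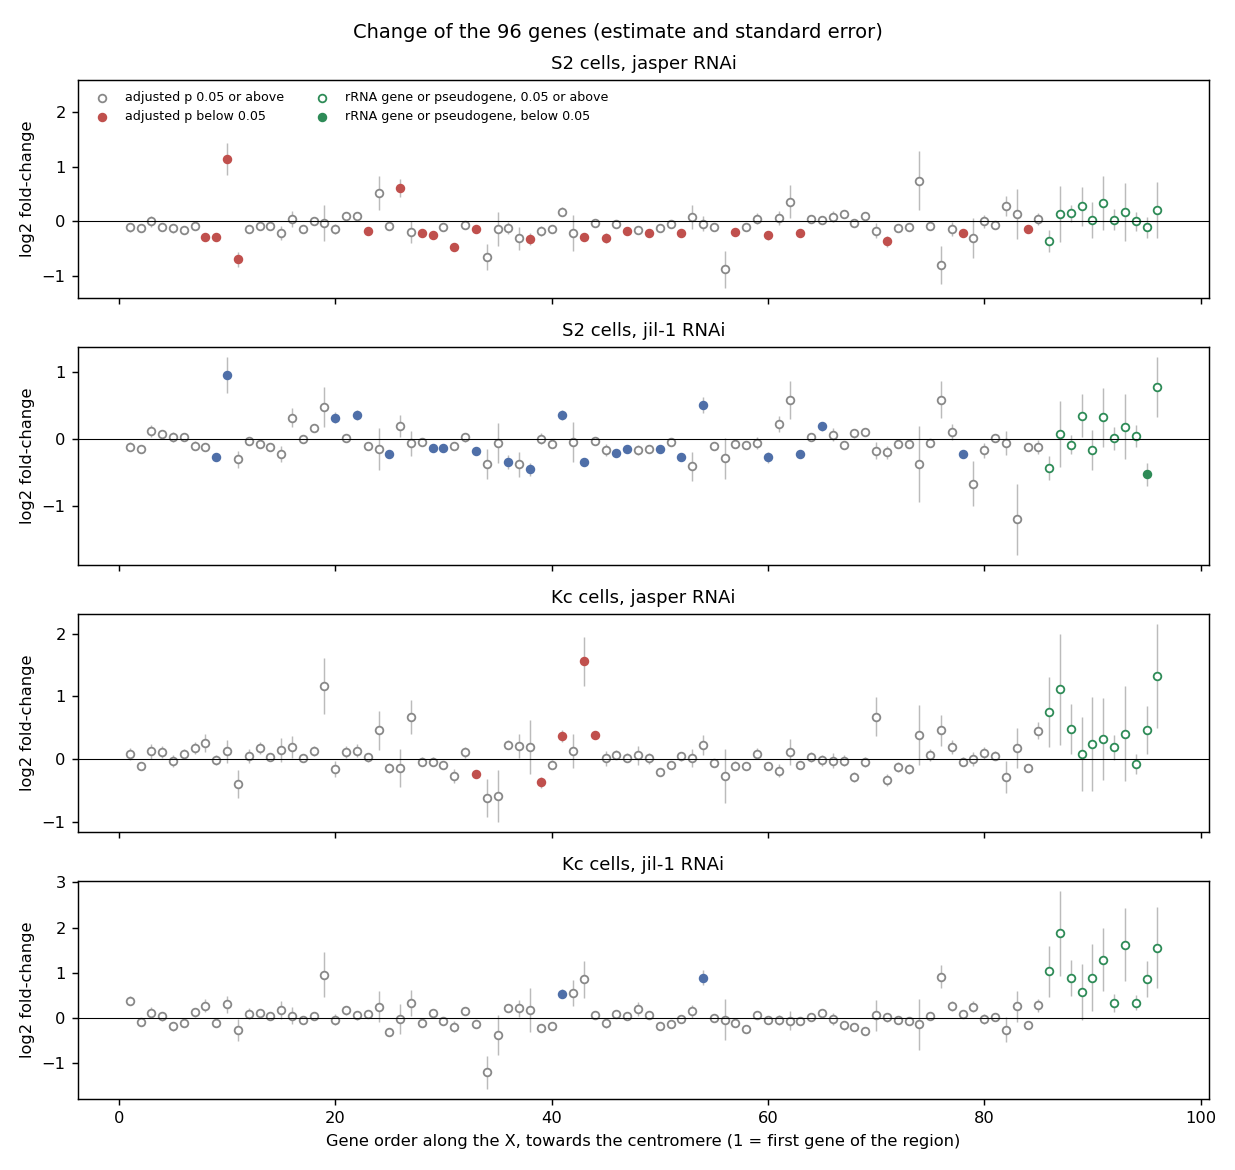
The log2 fold-change of each of the 96 genes (vertical axis) is drawn in gene order towards the centromere (horizontal axis) for S2 and Kc cells upon *jasper* and *jil-1* RNAi, with its standard error as a bar, filled where the adjusted p was below 0.05 and green for the 11 ribosomal RNA genes and pseudogenes. In S2 cells 20 of the 22 genes called upon *jasper* RNAi lie below 0, whereas in Kc cells 5 genes were called upon *jasper* and 2 upon *jil-1* RNAi.

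*Mgstl* (21042125 to 21044107, plus strand), a microsomal glutathione S-transferase-like enzyme, had 121, 136, 138, 141 and 111 CPM in the control replicates 4, 5, 8, 9 and 11. Upon *jasper* RNAi it had 95.6, 87.3, 103 and 101 CPM in replicates 4, 5, 8 and 9. Every *jasper* RNAi library was thus below every control library, and the log2 fold-change was -0.46 (SE 0.058, adjusted p = 4.34e-05 with edgeR). *l(1)G0004* (20391447 to 20392401, plus strand) had 29.9, 33.9, 25.6, 29.6 and 21.2 CPM in control and 23.1, 15.7, 14.5 and 19.8 CPM in *jasper* RNAi libraries. These groups overlapped through control replicate 11 and *jasper* replicate 4, and the log2 fold-change was -0.70 (SE 0.14, adjusted p = 0.0028). *Rpt6*, an ATPase subunit of the proteasome's regulatory particle, had between 154 and 185 CPM in control and between 120 and 144 CPM upon *jasper* RNAi. Its log2 fold-change was -0.30 (adjusted p = 0.034), a call that was lost in 8 of 14 fits that each left out 1 library (highest adjusted p = 0.10). *CG17600*, *CG17068* and *CG14621* fell by 0.36, 0.28 and 0.25 on the log2 scale and were lower in 4 of 4 same-numbered pairs of RNAi and control libraries, and these calls were lost in 3, 0 and 10 of the 14 fits. *CG17068* had 32.9 CPM in control replicate 11, the only control library of batch 3, and between 56.3 and 64.3 CPM in the other control libraries.

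Other members that fell upon *jasper* RNAi fell by 0.33 or less on the log2 scale. They were *CG1494*, *Rab10*, *CG1503*, *CG1529*, *Septin1*, *dod*, *Coa7*, *wap*, *CG1532*, *mst*, *Tak1*, *CG1486*, *su(f)* and *Stt3A*. Among them *su(f)* encodes a cleavage factor that forms the 3′ ends of mRNAs, *dod* a prolyl isomerase, *Tak1* a kinase of immune and stress signalling, and *wap* a WD-repeat protein. The 2 rises were those of weakly expressed genes. *CG1835* had 4.57, 3.95, 3.75, 2.86 and 3.09 CPM in control and 5.83, 5.93, 5.50 and 6.11 CPM in *jasper* RNAi libraries (log2 fold-change 0.62, SE 0.17, adjusted p = 0.017), and *CG17065* had at most 1.37 CPM in control and at least 1.64 CPM upon *jasper* RNAi (1.14, SE 0.29, adjusted p = 0.013). Neither gene's groups overlapped, but *CG17065* rested on as few as 2 reads in a library. Of the 22 calls, 13 held in each of the 14 fits that left out 1 library, and the count was 14 without *jasper* replicate 5. It was 9 without *jasper* replicates 5 and 9, in which reads on *Jasper* were mostly on its own strand (1102 and 1641 CPM, beside 132 and 259.5 CPM on the opposite strand), and 5 with no batch term in the model. Calls that held in those fits and in every other alternative tried were *l(1)G0004*, *Mgstl*, *Septin1* and *wap*.

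Upon *jil-1* RNAi in S2 cells the proximal genes were again mostly lower, and more of them rose than upon *jasper* RNAi. The median log2 fold-change was -0.079 (-0.084 without ribosomal RNA genes), beside -0.080 for the mid X and 0.021 for autosomal genes. By the same test 16 members fell and 6 rose, where 12.3% of all genes fell, 9.12% rose and 21.4% were called. Of the mid X genes 212 (22.6%) fell and 50 (5.33%) rose, beside 16.7% and 6.25% of the proximal genes. Without ribosomal RNA genes the proximal shares were 17.6% and 7.06%. Both comparisons in S2 cells used the same control libraries, so that their calls are not independent.

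*Septin1* (21358286 to 21361688, plus strand), a subunit of septin filaments, had 193, 194, 198, 191 and 189 CPM in control replicates 4, 5, 8, 9 and 11 and 163, 168, 150, 158 and 162 CPM in the same-numbered *jil-1* RNAi libraries. The *jasper* RNAi libraries had 165, 174, 160 and 167 CPM. All RNAi libraries lay below all control libraries, and the log2 fold-changes were -0.28 (SE 0.039, adjusted p = 0.000139 with edgeR) upon *jil-1* and -0.22 (SE 0.043, adjusted p = 0.0020) upon *jasper* RNAi. *Rab10*, a small GTPase of exocytic transport, had between 148 and 176 CPM in control, between 124 and 142 CPM upon *jasper* and between 118 and 151 CPM upon *jil-1* RNAi. Its log2 fold-changes were -0.28 (adjusted p = 0.00096) and -0.27 (adjusted p = 0.00063), with lower values in 4 of 4 and 5 of 5 pairs. *wap* fell by 0.21 upon *jasper* and by 0.23 upon *jil-1* RNAi. *Coa7*, an assembly factor of cytochrome c oxidase, fell by 0.21 and 0.23, and *Cyp6v1*, a cytochrome P450, fell by 0.22 upon *jil-1* RNAi. *Dd*, a phosphatase of the nuclear envelope, fell by 0.20 upon *jil-1* RNAi (adjusted p = 0.027, lost in 5 of 14 fits without 1 library). *bves* fell by 0.34 (adjusted p = 0.030) and was lower in 4 of 5 pairs, and *CG14621*, *Stt3A*, *CG1486*, *CG1529*, *peng*, *Ntf-2* and a ribosomal RNA pseudogene were also called lower.

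*CG1503* and *CG1494*, which also fell upon *jil-1* RNAi, had far lower levels in Kc than in S2 cells. *CG1503* had 22.9, 33.0, 28.7, 31.2 and 26.2 CPM in S2 control and 19.4, 23.96, 20.1, 23.7 and 15.6 CPM in *jil-1* RNAi libraries, in the order of replicates given above. The groups overlapped through control replicate 4, while all 5 pairs were lower, and the log2 fold-change was -0.46 (SE 0.10, adjusted p = 0.0049). *CG1494* (21285301 to 21292458, plus strand), which encodes a transporter of the ABC family, had 289.7, 271, 260.0, 265 and 233 CPM in control and 234, 229, 197, 199.7 and 184 CPM in *jil-1* RNAi libraries. Its *jasper* RNAi libraries had 240.1, 240.2, 211 and 203 CPM. Control replicate 11 overlapped both RNAi groups, and each pair was lower, with log2 fold-changes of -0.34 (SE 0.039, adjusted p = 1.59e-05) upon *jil-1* and -0.28 (SE 0.042, adjusted p = 0.000217) upon *jasper* RNAi.

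*slgA* (21374002 to 21385159, plus strand), a mitochondrial proline dehydrogenase, had 8.93, 10.9, 9.55, 11.2 and 11.9 CPM in control and 12.5, 15.01, 12.4, 15.1 and 18.6 CPM in *jil-1* RNAi libraries. All *jil-1* RNAi libraries were above all control libraries, and the log2 fold-change was 0.51 (SE 0.12, adjusted p = 0.0089). *GstT3*, a theta-class glutathione S-transferase, rose by 0.32 (adjusted p = 0.013), *CG1812* by 0.35 (adjusted p = 0.0035) and *CG14613* by 0.19 (adjusted p = 0.047, lost in 11 of 14 fits without 1 library, with a highest adjusted p of 0.12). *CG17065* rose by 0.96 (adjusted p = 0.020). *Mnr* had a log2 fold-change of 0.36 (adjusted p = 0.0037) and was higher in 4 of 5 pairs, with 125 CPM in control replicate 11 and between 64.1 and 87.3 CPM in the other control libraries. Of the 22 calls, 11 held in each fit that left out 1 library. The count was 14 without control replicate 8 and 7 with no batch term. *CG1494*, *CG1503*, *CG1812*, *Cyp6v1*, *Rab10*, *Septin1* and *wap* were called in all of these and in every other alternative tried.

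**Figure D2:**
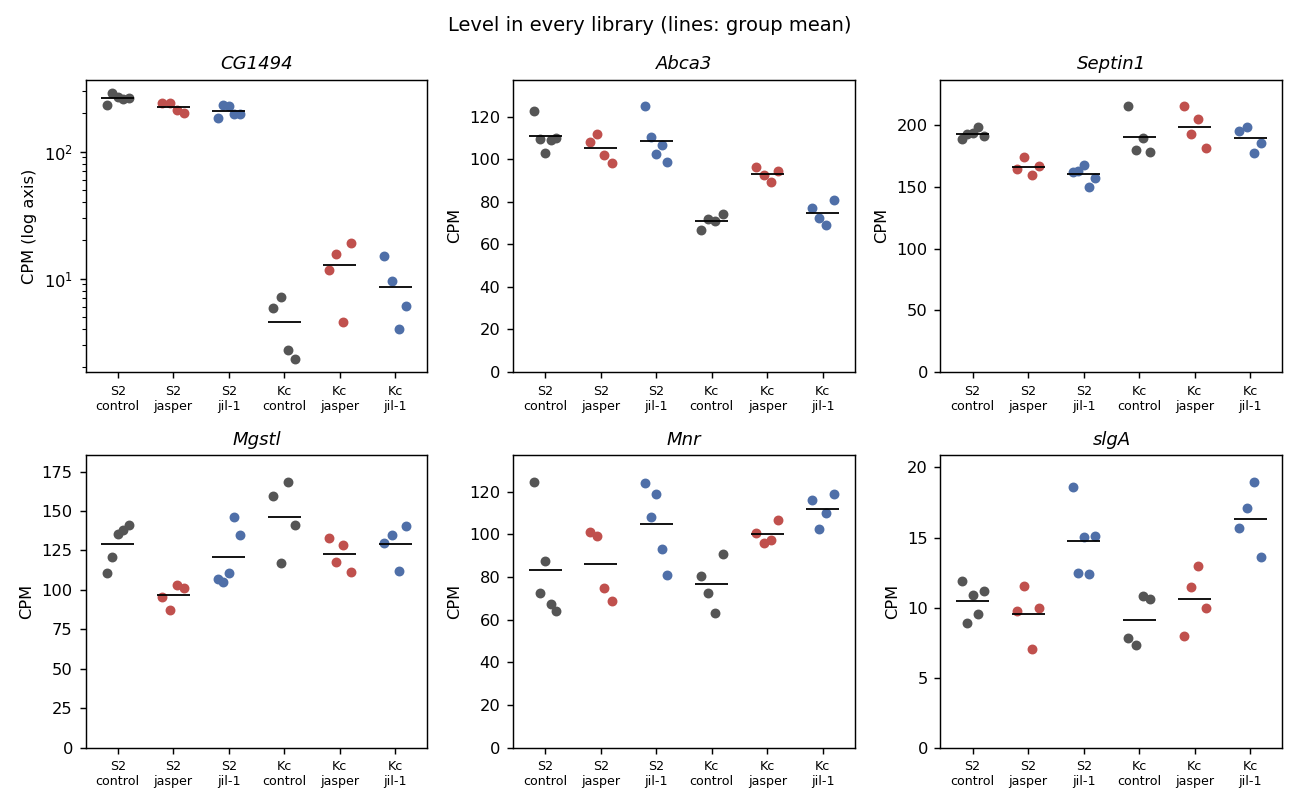
CPM of 6 genes in every library (points) and the mean of each group (lines) are shown for control, *jasper* and *jil-1* RNAi in S2 and Kc cells, on a log axis for *CG1494* only. *Septin1* in S2 cells is at most 174 CPM in all RNAi libraries and at least 189 CPM in all control libraries, and *slgA* upon *jil-1* RNAi is above the controls of both lines.

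In female Kc cells few proximal genes were called and their medians were not below 0. Upon *jasper* RNAi the median log2 fold-change was 0.058 (0.028 without ribosomal RNA genes), beside 0.010 for the mid X, and 2 members fell and 3 rose. Over all genes tested in Kc cells 4.56% were called, 2.79% lower and 1.76% higher. Upon *jil-1* RNAi the median was 0.058 (0.038 without ribosomal RNA genes), beside 0.030 for the mid X, and 0 members fell and 2 rose with edgeR (10 fell and 9 rose at an unadjusted p below 0.05, and 3 and 4 with DESeq2), where 3.53% of all genes were called, 2.18% lower and 1.35% higher. These shares, 5.21% and 2.08% of the 96 genes, were close to those of all genes. The 2 falls upon *jasper* RNAi were those of *unc*, a basal body protein of ciliated neurons and sperm, and *Stt3A*. *unc* had 58.5, 59.4, 57.1 and 54.3 CPM in control replicates 1 to 4 and 38.4, 47.8, 42.3 and 51.0 CPM upon *jasper* RNAi (log2 fold-change -0.37, SE 0.087, adjusted p = 0.033). *Stt3A* had 415, 412, 432 and 423 CPM in control and 352, 353.03, 374 and 353.7 CPM upon *jasper* RNAi (-0.24, SE 0.055, adjusted p = 0.028). Neither gene's groups overlapped, but the calls of *unc* and *Stt3A* held in only 4 and 5 of 12 fits without 1 library. Upon *jil-1* RNAi *unc* had 45.3 to 53.0 CPM and *Stt3A* 376 to 392 CPM, also below every Kc control library, although neither was called. *Stt3A* was also the only member called in the same direction upon *jasper* RNAi in both lines, with a log2 fold-change of -0.14 (adjusted p = 0.028) in S2 cells.

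The rises in Kc cells included *Abca3* and its neighbour *CG1494*, which overlap at their 3′ ends on opposite strands and were counted by strand. *Abca3* (21292308 to 21306665, minus strand), a transporter of the ABC family, had 66.7, 72.1, 71.1 and 74.4 CPM in control and 96.3, 92.9, 89.4 and 94.6 CPM in *jasper* RNAi libraries. The groups were well apart (log2 fold-change 0.38, SE 0.065, adjusted p = 0.0089), while upon *jil-1* RNAi the gene had between 69.0 and 80.8 CPM and a log2 fold-change of 0.064. *CG1494* was low in Kc cells, with 67, 128, 24 and 19 reads, or 5.87, 7.14, 2.73 and 2.34 CPM, in control replicates 1 to 4. Upon *jasper* RNAi it had 11.7, 15.5, 4.53 and 19.2 CPM, higher in each pair, and the log2 fold-change was 1.56 (SE 0.39, adjusted p = 0.040). Replicate 3 upon *jasper* RNAi lay below control replicates 1 and 2, and the call was lost in 7 of 12 fits without 1 library (highest adjusted p = 0.10).

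*Mnr* and *slgA* made up the calls upon *jil-1* RNAi in Kc cells. *Mnr* (21205310 to 21281171, minus strand) had 80.4, 72.5, 63.3 and 91.0 CPM in control, 101, 95.9, 97.2 and 107 CPM upon *jasper* and 116, 102, 109.9 and 119 CPM upon *jil-1* RNAi. Both RNAi groups lay above the control group, with log2 fold-changes of 0.37 (adjusted p = 0.045) and 0.54 (SE 0.097, adjusted p = 0.011). The call upon *jasper* RNAi held in 2 of 12 fits without 1 library, and that upon *jil-1* RNAi in 12 of 12. *slgA* had 7.80, 7.36, 10.8 and 10.6 CPM in control and 15.7, 17.1, 18.96 and 13.6 CPM upon *jil-1* RNAi (0.89, SE 0.16, adjusted p = 0.012), again without overlap. Thus *slgA* rose upon *jil-1* RNAi in both lines, where *jasper* RNAi gave log2 fold-changes of -0.038 in S2 and 0.22 in Kc cells that did not pass the test. The *jasper* RNAi count in Kc cells was 1 without control replicate 1, 2 or 3 or *jasper* replicate 2, 2 without control replicate 4 or *jil-1* replicate 2, and 3 without *jasper* replicate 1 or 4 or *jil-1* replicate 4, and *Abca3* was called in all of these. The *jil-1* RNAi count was 5 without control replicate 1 and 6 with replicate number as a block in place of batch.

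Proximal and mid X genes differed little. Over the 96 genes the mean difference over pairs of libraries was smaller than its SD in all 4 comparisons, whereas without ribosomal RNA genes the mean upon *jasper* RNAi in S2 cells was -0.025 with an SD of 0.024, and 3 of 4 pairs were below 0. In S2 cells the proximal median minus the mid X median was -0.017 upon *jasper* RNAi, where 4 pairs gave -0.020, -0.065, 0.0062 and -0.0083 (SD 0.031). Upon *jil-1* RNAi it was 0.00093, and 5 pairs gave between -0.043 and 0.060 (SD 0.041). In Kc cells it was 0.047 upon *jasper* RNAi, which was above the SD of 0.033 over 4 pairs, whose mean was 0.017, and 0.027 upon *jil-1* RNAi (SD 0.069). Without ribosomal RNA genes the differences were -0.035, -0.0042, 0.018 and 0.0078 in the same order. Means over the pairs of a batch were -0.042 in batch 1 and -0.0010 in batch 2 for S2 cells upon *jasper* RNAi, -0.010 in batch 1, -0.0064 in batch 2 and 0.060 in the single pair of batch 3 upon *jil-1* RNAi, and 0.035 and -0.0016 in Kc cells upon *jasper* and 0.042 and -0.013 upon *jil-1* RNAi. The sign thus differed between batches in 3 of the 4 comparisons.

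Against autosomal genes, by contrast, the proximal genes without ribosomal RNA genes were lower in each S2 pair. The difference of medians was -0.15 upon *jasper* RNAi (4 pairs between -0.16 and -0.12) and -0.11 upon *jil-1* RNAi (5 pairs between -0.12 and -0.077). The mid X differed from the autosomes by -0.12 and -0.10. In Kc cells the proximal differences were 0.027 and 0.039, with 2 of 4 pairs below 0 in each.

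**Figure D3:**
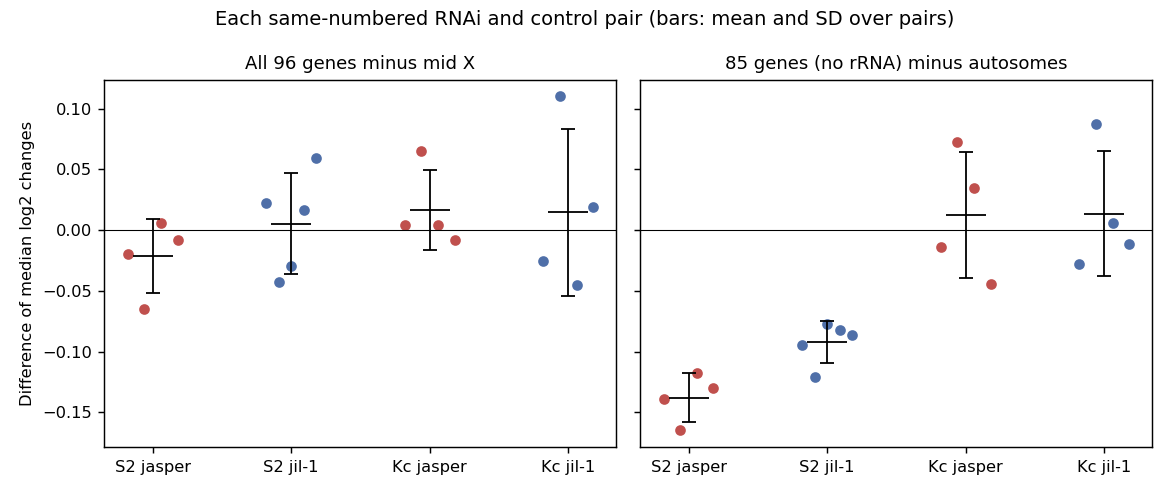
Each point is the difference of median log2 changes in a same-numbered pair of RNAi and control libraries, for the 96 genes minus the mid X (left) and for the 85 genes without ribosomal RNA genes minus the autosomes (right), with the mean and SD over pairs in black. S2 pairs lie on both sides of 0 against the mid X and between -0.16 and -0.077 against the autosomes.

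Along the region the lowest S2 medians lay between 21 and 22 Mb. Without ribosomal RNA genes, the 33 members there had a median log2 fold-change of -0.16 with 11 falls and 0 rises upon *jasper* RNAi, and of -0.13 with 10 falls and 2 rises upon *jil-1* RNAi. The 26 members between 20 and 21 Mb had -0.095 and -0.014, the 16 between 22 and 23 Mb -0.0048 and -0.063, and the 10 above 23 Mb -0.099 and -0.12. Falls in these windows numbered 4, 3 and 2 upon *jasper* and 2, 2 and 1 upon *jil-1* RNAi. Of all genes tested 11.9% fell upon *jasper* and 12.3% upon *jil-1* RNAi, and of the mid X genes 23.3% and 22.6%. The largest share of falls in a mid X window was 24 of 84 genes (11 to 12 Mb) upon *jasper* RNAi. Upon *jil-1* RNAi it was 41 of 106 genes (15 to 16 Mb). In 15 windows of 1 Mb along the mid X, with between 19 and 106 genes each, medians ran from -0.14 to 0.0066 upon *jasper* and from -0.15 to 0.057 upon *jil-1* RNAi. The window between 21 and 22 Mb was thus below all 15 mid X windows upon *jasper* RNAi and within their range upon *jil-1* RNAi, and the medians did not fall or rise steadily towards the centromere. In Kc cells the same 4 windows had medians of 0.097, 0.014, -0.033 and 0.083 upon *jasper* and 0.058, 0.049, -0.037 and 0.18 upon *jil-1* RNAi, the last resting on 10 genes, while the mid X windows lay between -0.034 and 0.12. Among the genes beyond 22 Mb, *CG14621*, *wap*, *CG17600*, *Coa7* and *su(f)* fell upon *jasper* RNAi. *fog*, a secreted signal of gastrulation, had a median of 191 CPM in S2 control libraries (lowest 179, highest 208) and log2 fold-changes of -0.078 and -0.058, which did not pass the test.

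**Figure D4:**
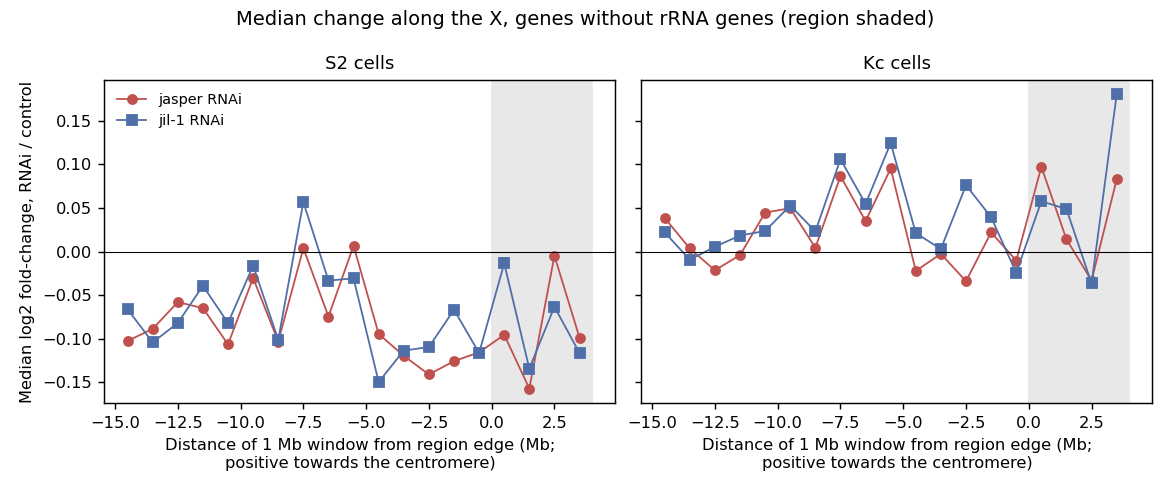
The median log2 fold-change of genes without ribosomal RNA genes in 1 Mb windows (vertical axis) is plotted against the distance of the window from the edge of the region (horizontal axis, positive towards the centromere, region shaded) for *jasper* RNAi (circles) and *jil-1* RNAi (squares). S2 medians in the region lie between -0.16 and -0.0048, and those of the 15 windows outside it between -0.15 and 0.057.

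Whether a gene responded differently in the lines was tested in 1 model over all 26 libraries. Upon *jasper* RNAi the response in S2 minus that in Kc had a median of -0.16 over the 96 genes, -0.13 without ribosomal RNA genes and -0.11 over the mid X. The proximal minus mid X difference was -0.052, and -0.027 without ribosomal RNA genes. By the test, 3 members responded more negatively in S2 and 0 more positively. Over all genes 4.32% were called, 3.00% lower and 1.33% higher. The 3 genes were *CG1494* (-1.72, SE 0.33, adjusted p = 0.0025), *Abca3* (-0.43, SE 0.076, adjusted p = 0.0014) and *Septin1* (-0.28, SE 0.077, adjusted p = 0.043). *CG1494* and *Abca3* were called in each of 26 fits without 1 library and in all 9 alternatives, whereas *Septin1* was lost in 16 of the 26. The count was 5 without Kc control replicate 3 or Kc *jasper* replicate 1. Thus *CG1494* was the only member that fell upon *jasper* RNAi in S2 and rose in Kc cells.

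Upon *jil-1* RNAi the median difference between the lines was -0.15 over the 96 genes, -0.10 without ribosomal RNA genes and -0.10 over the mid X. By the same test 4 members responded more negatively in S2 and 1 more positively, where 7.93% of all genes were called, 3.58% lower and 4.35% higher. Those lower were *bves* (-0.57, SE 0.14, adjusted p = 0.015), a Popeye-domain membrane protein, *Rab35* (-0.49, adjusted p = 0.023), *Coa7* (-0.33, adjusted p = 0.019) and *Septin1* (-0.26, adjusted p = 0.036). *bves* had between 34.5 and 42.6 CPM in S2 control and between 23.5 and 35.5 CPM upon *jil-1* RNAi, against 69.1 to 81.3 CPM and 77.6 to 91.8 CPM in Kc cells. *Rab35* had 112, 88.4, 69.8 and 85.2 CPM in Kc control and 127, 114, 108 and 114 CPM upon *jil-1* RNAi, where its own log2 fold-change of 0.38 did not pass the test (adjusted p = 0.054). *l(1)G0196*, an inositol pyrophosphate kinase, differed by 0.40 (adjusted p = 0.014), with values in Kc cells of 92.2 to 102 CPM in control and 67.8 to 86.7 CPM upon *jil-1* RNAi. The count was 13 without Kc control replicate 1, 3 without Kc *jil-1* replicate 2, 9 with replicate number as a block and 0 with no batch term, so that none of the 5 calls held throughout.

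Between the control lines most proximal genes differed. Of 96 members 34 were lower and 25 higher in S2 than in Kc cells, or 61.5%, where 69.3% of all genes tested were called, 35.6% lower and 33.8% higher. None of the 11 ribosomal RNA genes was called, and without them the share was 69.4%, close to that of all genes and to the 70.5% of the mid X. The median log2 difference was -0.047 over the 96 genes, -0.12 without ribosomal RNA genes and -0.12 over the mid X. This comparison had no batch term, since the labels do not say whether batch numbers were shared by the lines. *CG1494* had 264 ± 20.4 CPM (SD, n = 5) in S2 and 4.52 ± 2.36 CPM (SD, n = 4) in Kc cells, *CG1503* 28.4 ± 4.01 and 0.659 ± 0.286 CPM, and *lncRNA:CR43493*, a noncoding RNA that lies antisense within *l(1)G0196*, 18.7 ± 2.12 and 1.00 ± 0.198 CPM. The log2 differences were 5.76, 5.49 and 4.17. *CG17167* was the most Kc-biased member, with 1.29 ± 0.419 CPM in S2 and 20.2 ± 5.55 CPM in Kc cells (log2 difference -4.01), followed by *CG17065* (-3.38) and *tilB* (-2.21), which encodes a protein of motile cilia. These 6 were picked as the largest differences that passed the test, and their values did not overlap between the lines.

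Of 22 genes listed as known from the base of the X, 14 were members. In addition to those above they included *sw*, the intermediate chain of cytoplasmic dynein, *mal*, the sulfurase of the molybdenum cofactor, *RhoGAP19D*, a GTPase-activating protein, *fliI*, an actin-binding protein of the gelsolin family, *sol*, an atypical calpain, *Ntf-2*, a nuclear import factor, and *DIP1*, a double-stranded RNA-binding protein. Upon *jasper* RNAi in S2 cells *Rab10*, *wap* and *su(f)* fell. Upon *jil-1* RNAi *Rab10*, *wap* and *Ntf-2* fell and *slgA* rose. In Kc cells *unc* fell upon *jasper* and *slgA* rose upon *jil-1* RNAi. *Ntf-2* had 299, 309, 271, 284 and 178 CPM in control replicates 4, 5, 8, 9 and 11 and 263, 262, 247, 266 and 174 CPM in the same-numbered *jil-1* RNAi libraries, so that each pair was lower and both libraries of batch 3 stood far below the rest. *Phf7*, *sw*, *mal*, *RhoGAP19D*, *fliI*, *sol*, *DIP1* and *fog* passed the test in none of the 4 RNAi comparisons, with log2 fold-changes between -0.16 and 0.20. Between the control lines *Phf7* was lower in S2 cells by 1.40 and *mal* by 0.87 on the log2 scale, while *fliI* was higher by 0.86.

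The 11 ribosomal RNA genes and pseudogenes took between 1.096% and 5.44% of uniquely aligned own-strand reads, against 0.563% to 0.772% for the other 85 genes together. Their share was between 1.096% and 4.05% in Kc control, between 1.79% and 4.79% in Kc *jasper* RNAi and between 2.32% and 5.44% in Kc *jil-1* RNAi libraries. Upon *jil-1* RNAi in Kc cells all 11 had positive log2 fold-changes with a median of 0.90, and 0 passed the test with edgeR or DESeq2 (2 had an unadjusted p below 0.05 with edgeR), their standard errors being 0.16 to 0.94. In S2 cells their share was between 1.64% and 4.22%, and 1 of the 11 was called. *5.8SrRNA-Psi:CR45863* had 5.39, 10.7, 10.9, 11.7 and 29.4 CPM in control and 6.53, 5.27, 7.84, 6.90 and 18.4 CPM upon *jil-1* RNAi (log2 fold-change -0.53, adjusted p = 0.037, lost in 7 of 14 fits without 1 library). The other genes at the far end, *pre-rRNA:CR45856* and *2SrRNA:CR45864*, did not pass the test in any comparison. Ribosomal RNA was depleted with either of 2 kits that the labels do not assign to libraries, and the part of depletion in these values was not tested.

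**Figure D5:**
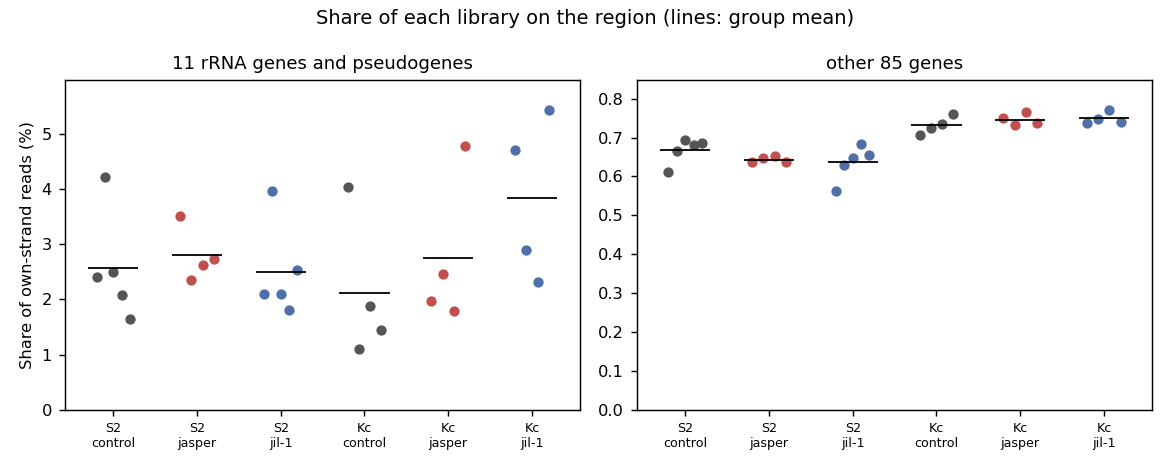
The share of own-strand reads of each library (points, in percent, with group means as lines) is shown for the 11 ribosomal RNA genes and pseudogenes (left) and for the other 85 genes (right). The former ranges from 1.096% to 5.44% with wide overlap between groups, and the latter stays between 0.563% and 0.772%.

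Among 7 genes of the dosage compensation machinery, *mof*, the acetyltransferase of the MSL complex, fell by 0.18 and *msl-1*, its scaffold, rose by 0.15 on the log2 scale upon *jasper* RNAi in S2 cells. These 2 of 7 stand beside 20.3% of all genes tested that were called there. In the other 3 comparisons 0 were called with edgeR, where an unadjusted p below 0.05 was reached by 0 genes upon *jil-1* RNAi in S2 cells and by 2 in each Kc comparison, and DESeq2 called 1 upon *jasper* RNAi in Kc cells. Of 7 heterochromatin genes 6 were tested and 0 were called by edgeR or DESeq2 in the 4 comparisons, with an unadjusted p below 0.05 in edgeR for 3, 1, 1 and 0 of them in the order S2 *jasper*, S2 *jil-1*, Kc *jasper* and Kc *jil-1*. Of all genes tested edgeR called 20.3%, 21.4%, 4.56% and 3.53% in the same order, so that few calls among so small a list tell little.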

How the data were processed

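RNA-seq of 26 libraries from S2 and Kc cells was used. The authors aligned reads with STAR 2.6.0 to BDGP6 and deposited, per library, read counts per gene without regard to strand and for each strand. The own-strand counts were used here and carry no normalisation. Rows of unassigned reads name no gene and were left out. Gene positions were taken from the Ensembl release 115 annotation of BDGP6, in which 17215 of 17489 genes were found. Sequences were not used here.

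Counts were fitted with edgeR 4.0.16 in R 4.3.3 by the quasi-likelihood test, separately for each line with all 3 groups and batch as a term. Scaling was by trimmed mean of M-values (TMM), and p-values were adjusted by Benjamini-Hochberg over all genes tested. Standard errors were obtained from each log2 fold-change and its F statistic. The difference in response was tested on all libraries with batch within line, and the control lines were compared without batch. CPM values were scaled jointly over all 26 libraries. Differences for single pairs used a prior count of 2. DESeq2 1.42.0, other filters, scalings and region limits, and leaving out each library were tried as alternatives, and the script was tested on simulated data.

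Members and lists were chosen with earlier results of these data known. Named genes were members that passed the test at a mean log2 CPM not below 1, with the same direction in each same-numbered pair, taken by size of change, as well as the largest differences between lines, listed genes known from the base of the X, and genes at both edges. Members outside this rule that are named to complete a count were chosen after their values were seen. Deviations of same-numbered libraries from their group means correlated at 0.36 to 0.58 in Kc and 0.27 to 0.78 in S2 cells, and within batches at -0.098 to 0.29 and -0.13 to 0.25. The labels tie the numbers to batches only. The p-values measure the spread between these libraries, which may be technical. No 2 replicate libraries agreed within sampling noise.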

Additional observations from a re-analysis of the deposited data

Results flagged for a closer look

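Of 188 groups of CPM values and pair differences, covering 30 genes, 11 held a sample apart from the others, where chance gives about 1 in 20 groups. The measure is the gap to the nearest sample divided by the range of the group. In Kc cells *CG17600* had 39.8 CPM in control replicate 2 and 32.3 to 33.5 CPM in the others (0.847), *CG14613* had 124 CPM in *jil-1* replicate 3 against 90.0 to 94.7 CPM (0.862), and *Stt3A* had 374 CPM in *jasper* replicate 3 against 352 to 354 CPM (0.931). In S2 cells *Rpt6* had 189.9 CPM in *jil-1* replicate 8 against 134 to 145 CPM (0.804). *CG17068* was low in both libraries of batch 3, with 32.9 CPM in control against 56.3 to 64.3 CPM (0.744) and 37.8 CPM in *jil-1* RNAi against 50.2 to 55.0 CPM (0.722). *CG14621* had 28.7 CPM in *jasper* replicate 4 against 31.5 to 31.8 CPM (0.912) and 39.8 CPM in *jil-1* replicate 5 against 28.4 to 29.8 CPM (0.882). *CG1812* had 29.4 CPM in *jasper* replicate 5 (0.948), and *tilB* 2.85 CPM in *jasper* replicate 9 against 1.38 to 1.56 CPM (0.878). For the difference between proximal and mid X genes upon *jasper* RNAi in Kc cells, pair 2 gave 0.065 and the others -0.0078 to 0.0045 (0.832).

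The response differed between the lines by the test of the difference itself in 8 cases. Upon *jasper* RNAi the log2 difference, S2 minus Kc, was -1.72 for *CG1494*, -0.43 for *Abca3* and -0.28 for *Septin1*. Upon *jil-1* RNAi it was -0.57 for *bves*, -0.49 for *Rab35*, -0.33 for *Coa7*, -0.26 for *Septin1* and 0.40 for *l(1)G0196*.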

How the results depend on the processing

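Of 204 alternative values 183 stayed within their limits, as did 209 of 226 values with 1 library left out. A count was within its limit unless it changed by more than a set factor. A proximal minus mid X median was within it if it moved by less than the SD between pairs or libraries. This SD was larger than most of these medians, so that a median could change sign within its limit. Upon *jil-1* RNAi in S2 cells the median ran from -0.029 to 0.041 over 24 alternatives, all within the limit. Without a batch term the counts of called members were 5 (S2 *jasper*), 7 (S2 *jil-1*), 1 (Kc *jasper*), 1 (Kc *jil-1*) and 0 (*jil-1* between lines). DESeq2 gave 8 and 7 in Kc cells and 5 and 9 between the lines. Without *jasper* replicates 5 and 9 in S2 and 2 and 4 in Kc cells the counts were 9 and 2, with only control and *jasper* RNAi libraries 1 in Kc cells, and with no filter on low counts 9 for Kc *jil-1*. With replicate number as a block in place of batch, they were 6 for Kc *jil-1* and 9 for *jil-1* between the lines, against 23, 21, 5 and 3 in the other comparisons. The proximal minus mid X median upon *jasper* RNAi in S2 cells turned to 0.016 against genes from 15 Mb, 0.018 for genes that overlap no other and 0.021 by means. In Kc cells it was 0.11 for such genes and 0.013 with the region begun at the lower limit tried upon *jasper*, and 0.12 by means upon *jil-1* RNAi. Leaving out 1 library in turn gave counts of 14 to 22 in both S2 comparisons, 1 to 5 and 2 to 5 in Kc cells, 2 to 5 and 3 to 13 between the lines and 57 to 63 between controls. The medians then ran from -0.025 to 0.0063 and -0.012 to 0.015 in S2, 0.010 to 0.048 and 0.016 to 0.047 in Kc cells. *asRNA:CR43480* was lower in S2 control cells by strand (-1.76) and higher without regard to strand (0.89). Apart from alternatives that use fewer libraries or genes, the cause was not tested. Weakly expressed members had standard errors above those of strong ones, which limits the calls among them.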
